A study of Mus musculus with 16 samples.

Results

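The genes described here load and unload the small GTPase Ras below the T cell receptor, and were taken by symbol together with a scaffold gene: the Ras exchange factors Sos1, Sos2 and Rasgrp1, the adaptor Grb2, the GTPase Nras, the GTPase-activating proteins Rasa1 and Rasa2, and Dlg1. They are 8 of 55536 annotated genes of the count table, with 61 of 141862 annotated transcripts and 163 of 125520 nodes of the splicing table. A node is a stretch of a gene that the splicing program treats as a unit, such as an exon or the stretch up to a 3′ end. All 8 genes passed the filter on low counts.

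The 16 libraries were made from OT-I CD8+ T cells of the C57BL/6J background, whose receptor recognises the ovalbumin peptide SIINFEKL. Naive cells received Cas9 with a Control gRNA (called scrambled in the labels) in 8 libraries, named control libraries below, and with a gRNA against Tardbp, the gene of the RNA-binding protein TDP-43, in the other 8, named Tardbp-targeted libraries. All cells were then transferred into C57BL/6J recipients, which were given the peptide and agonist antibodies to OX40 (CD134) and 41BB (CD137). Donor CD8+ cells carrying CD45.1 and CD45.2 were sorted from spleen and lymph nodes at day 4 by the labels, while the methods give a somewhat shorter time. The study's text names a stimulation of the purified cells beside the sequencing. Whether the sequenced cells had been stimulated again after the sort is not clear from it. The edited cells were a mixed population and not a clone, and the study asked which RNA processing events depend on Tardbp. The cells of a group came from 8 separate recipients by the study's text, while the labels name no animal for a library. The p-values therefore set a difference between the groups against the spread between these libraries.

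Ras cycles between an inactive GDP-bound form and an active GTP-bound form. In T cells Grb2 brings Sos1 or Sos2 to phosphorylated LAT at the membrane, Rasgrp1 is recruited by diacylglycerol, and both routes exchange the nucleotide on Ras, which then activates Raf, MEK and ERK, while Rasa1 and Rasa2 speed GTP hydrolysis. Dlg1 is a polarity scaffold that gathers kinases at the immune synapse, and its alternative exons are known to change its partners.

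Gene counts summed to 73649630 to 93893357 per control library and 56016533 to 94801105 per Tardbp-targeted library. Tardbp itself had a mean of 192.4 ± 13.3 CPM (counts scaled to library size, SD, n = 8) in control and 134.9 ± 11.3 CPM (n = 8) in Tardbp-targeted libraries, with no overlap (log2 fold change -0.51, edgeR adjusted p = 8.07e-07). The deposited concentration of the input RNA, which carries no unit, did not overlap either, at 34.9 to 197.1 in control and 10.1 to 24 in Tardbp-targeted libraries. Fits below with the concentration as a covariate can therefore not tell it apart from the guide. Of all 16650 genes tested 46.7% passed between the guides (edgeR adjusted p under 0.05), 23.5% as higher in Tardbp-targeted libraries and 23.3% as lower. Beside that share, all 6 CD8 T cell markers passed as higher. Their summed level was 2560 to 3188 CPM in control and 3947 to 5128 CPM in Tardbp-targeted libraries. The 4 red cell markers tested, all globin genes, also passed as higher (sum 0.437 to 16.6 against 9.22 to 185 CPM). Of 5 B cell markers Ighm alone passed as higher (sum 370 to 444 against 559 to 723 CPM, with mean Ms4a1 and Cd4 each under 1 CPM), of 5 myeloid markers Lyz2 alone (24.1 to 41.8 against 31.9 to 92.3 CPM), and of 4 CD4 T cell markers none (4.196 to 20.4 against 6.27 to 15.98 CPM). The part of these differences in the results that follow was not tested, and in bulk RNA fewer cells of a type and less RNA per cell cannot be told apart.

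Per length of transcript, Nras was the most abundant of the 8 genes and Sos1 the least. Levels rebuilt from transcript counts were, in control libraries, 55.1 ± 2.73 TPM (transcript counts scaled by length and library, SD, n = 8) for Nras, 33.1 ± 10.02 for Grb2, 27.6 ± 3.93 for Rasgrp1, 14.4 ± 1.46 for Rasa2, 10.3 ± 1.61 for Rasa1, 6.88 ± 0.702 for Dlg1, 1.68 ± 0.259 for Sos2 and 0.870 ± 0.193 for Sos1. The order was the same in Tardbp-targeted libraries. The ranges of Nras and Grb2, of Grb2 and Rasgrp1, and of Rasa2 and Rasa1 overlapped in each group, and those of the other neighbours did not. Among the exchange factors, Rasgrp1 thus lay above both Sos genes in every library.

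Of the 8 genes 4 passed the test between the guides, Sos1, Rasa1 and Rasa2 higher and Nras lower in Tardbp-targeted libraries. Of all 16650 genes tested 46.7% passed, 23.5% as higher and 23.3% as lower, so the count among the 8 is near the share of genes in general. The median log2 fold change of all genes tested was 0.05. At an adjusted p under 0.01 Nras and Rasa1 passed.

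**Figure D1:**
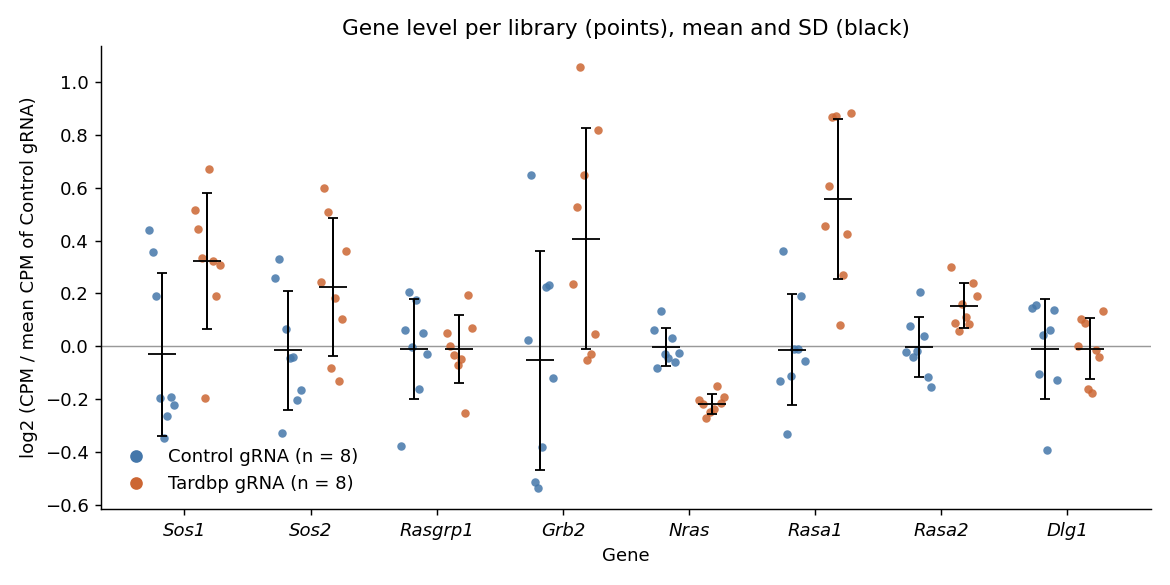
Level of each of the 8 genes in every library, relative to the control mean on a log2 scale, with 8 control and 8 Tardbp-targeted libraries. Points are libraries and black marks the mean and SD. All 8 Tardbp-targeted libraries lie below all control libraries for Nras and 6 of 8 lie above all of them for Rasa1, while the groups overlap for the other genes.

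Sos1 (ENSMUSG00000024241.7, chr17:80393751-80480453, minus strand, mm10) encodes an exchange factor that Ras-GTP itself stimulates. Control libraries had 3.47 CPM at the lowest, 3.86 at the median and 5.98 at the highest, and Tardbp-targeted libraries 3.85, 5.54 and 7.03 CPM. The groups overlapped, with 3 of 8 Tardbp-targeted libraries above every control library and 7 above the control median. The log2 fold change was 0.34 ± 0.14 (SE), at the edge of the threshold (edgeR adjusted p = 0.0488). It no longer passed with RLE size factors (adjusted p = 0.0513), with no filter on low counts (0.0776), with the letter M or F deposited for each library (0.0576) or the RNA concentration as a covariate (0.344), or without any single one of 12 of the 16 libraries, all but control 1, 2 and 3 and Tardbp-targeted 4. The log2 fold change was 0.07 among libraries numbered 1 to 3 and 0.52 among those numbered 4 to 8. With the concentration as a covariate it was 0.44 ± 0.30 (SE).

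Sos2 (ENSMUSG00000034801.13, chr12:69583762-69681852, minus strand), the close relative of Sos1, had 3.48, 4.25 and 5.50 CPM (lowest, median, highest) in control and 3.99, 5.07 and 6.63 CPM in Tardbp-targeted libraries. The groups overlapped, and the log2 fold change of 0.24 ± 0.12 did not pass (edgeR adjusted p = 0.114).

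Rasgrp1 (ENSMUSG00000027347.18, chr2:117279993-117343001, minus strand), the exchange factor that binds diacylglycerol, had 56.2, 74.3 and 84.4 CPM in control and 61.4, 72.3 and 83.7 CPM in Tardbp-targeted libraries. The ranges nearly coincided. The log2 fold change was -0.01 ± 0.08 (edgeR adjusted p = 0.957).

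Grb2 (ENSMUSG00000059923.13, chr11:115644045-115708597, minus strand), the SH2 and SH3 adaptor that carries Sos to LAT, varied widely within groups. Control libraries had 37.1, 52.1 and 84.2 CPM and Tardbp-targeted libraries 51.9, 70.5 and 112 CPM. The groups overlapped, with 3 of 8 Tardbp-targeted libraries above every control library. The log2 fold change of 0.46 ± 0.19 lay just outside the threshold (edgeR adjusted p = 0.0516). It passed with a block of numbers 1 to 3 against 4 to 8 (adjusted p = 0.0471) and without control 2 (0.0119), Tardbp-targeted 5 (0.0473) or Tardbp-targeted 6 (0.0483).

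Nras (ENSMUSG00000027852.14, chr3:103058285-103067914, plus strand), the GTPase on which these enzymes act, fell. Control libraries had 130.9, 136.2 and 152.3 CPM and Tardbp-targeted libraries 114.9, 119.4 and 124.9 CPM. No library of the groups overlapped, which held for 16.9% of all genes tested. The level was 86.0% of control, a log2 fold change of -0.22 ± 0.04 (edgeR adjusted p = 6.68e-05, exact two-sided permutation p = 0.000155, the smallest that 8 against 8 libraries allow).

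Rasa1 (ENSMUSG00000021549.14, chr13:85214780-85289130, minus strand), a GTPase-activating protein with SH2 domains, had the largest log2 fold change of the 8 genes. Control libraries had 21.4, 26.4 and 34.6 CPM and Tardbp-targeted libraries 28.6, 39.1 and 49.7 CPM. Of the latter, 6 lay above every control library and all 8 above the control median. The level was 150.0% of control, a log2 fold change of 0.58 ± 0.12 (edgeR adjusted p = 0.000543, exact two-sided permutation p = 0.00109).

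Rasa2 (ENSMUSG00000032413.12, chr9:96539300-96631617, minus strand), a GTPase-activating protein of another branch of the family, rose less. Control libraries had 43.5, 47.8 and 56.0 CPM and Tardbp-targeted libraries 50.5, 53.3 and 59.6 CPM. All 8 of the latter lay above the control median and 2 above every control library. The log2 fold change was 0.16 ± 0.05 (edgeR adjusted p = 0.0243). With the RNA concentration as a covariate Rasa2 no longer passed (0.25 ± 0.12, adjusted p = 0.159), where Nras (0.0318) and Rasa1 (0.0274) did. The Rasa2 call was also lost without any single one of control 4, 7 and 8 and Tardbp-targeted 1, 4, 5, 6, 7 and 8.

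Dlg1 (ENSMUSG00000022770.17, chr16:31663443-31875129, plus strand) had 12.7, 17.3 and 18.6 CPM in control and 14.7, 16.6 and 18.3 CPM in Tardbp-targeted libraries. The groups overlapped throughout, and the log2 fold change was -0.0045 ± 0.08 (edgeR adjusted p = 0.971).

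Dlg1-202, Dlg1-201 and Dlg1-203, the leading Dlg1 transcripts, are all coding and differ at 2 coding exon positions and at both ends. Dlg1-202 (927 codons) holds the 99-base node 11 and the 100-base node 24. Dlg1-203 (905 codons) holds node 11 and, in place of node 24, the 34-base node 25. Dlg1-201 (872 codons) lacks node 11, holds node 25, and has 906 bases after its last codon against 1568 in Dlg1-202. Node 11 is a multiple of 3 bases long and covers codons 162 to 194 of Dlg1-202. Nodes 24 and 25 each leave 1 base over a multiple of 3, so their exchange keeps the reading frame.

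Node 11 is shown because its use sets Dlg1-201 apart from the other leading transcripts. It is given 5′ to 3′ as spliced in the GENCODE M21 transcript (GRCm38, plus strand), with the alternative exon in capitals between 20 bases of each neighbouring exon in lower case.
Dlg1 node 11, chr16:31771757-31771855: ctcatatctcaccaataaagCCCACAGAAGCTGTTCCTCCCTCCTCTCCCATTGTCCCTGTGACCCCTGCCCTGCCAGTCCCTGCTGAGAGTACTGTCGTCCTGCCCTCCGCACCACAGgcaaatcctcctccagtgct
Its GC content was 63.6%. It does not hold TGTGTG, a repeat of the kind TDP-43 is known to bind, on the strand of the RNA. Intron sequence was not read here.

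Dlg1-202 took 33.6% of the gene's count at the lowest, 60.8% at the median and 73.1% at the highest in control libraries, and 65.8%, 80.9% and 95.5% in Tardbp-targeted libraries. All but 1 of the 8 Tardbp-targeted libraries lay above every control library. The mean share went from 57.7 ± 13.5% to 81.8 ± 10.1% (SD, n = 8 each), a rise of 24.1 ± 5.82 percentage points (SE, limma adjusted p = 0.0284). It was the 1 transcript called among 27 of these genes tested for share, where 0.640% of 32819 transcripts were called at this threshold with a difference over 10 points. The call was lost without control 1 (adjusted p = 0.0514), 3 (0.0550) or 5 (0.0534) or Tardbp-targeted 4 (0.0543) or 5 (0.0540), and with the RNA concentration as a covariate (25.5 points, adjusted p = 0.735), and the difference stayed between 20.7 and 26.4 points whichever library was left out.

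Dlg1-201 and Dlg1-203 had lower mean shares that did not pass. Dlg1-201 went from 24.6 ± 11.7% (0 to 39.2%) to 8.37 ± 8.75% (0 to 20.1%), and was listed at 0 in 1 control and 3 Tardbp-targeted libraries (limma adjusted p = 0.0910). Dlg1-203 went from 11.3 ± 14.8% to 1.66 ± 1.59% (adjusted p = 0.371), with control 1 at 33.6% and control 7 at 36.6% and no other library above 6.7%. The other Dlg1 transcripts tested, Dlg1-204, Dlg1-206 and Dlg1-215, had mean shares of 0.912 to 2.16% in control and 1.36 to 3.36% in Tardbp-targeted libraries, and none passed. Tested as counts, none of the leading transcripts passed (edgeR adjusted p = 0.0774 for Dlg1-202, 0.439 for Dlg1-201 and 0.0652 for Dlg1-203), while 16.6% of 40897 transcripts did. With DESeq2, Dlg1-202 (adjusted p = 0.0455) and Dlg1-203 (0.00904) passed.

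**Figure D2:**
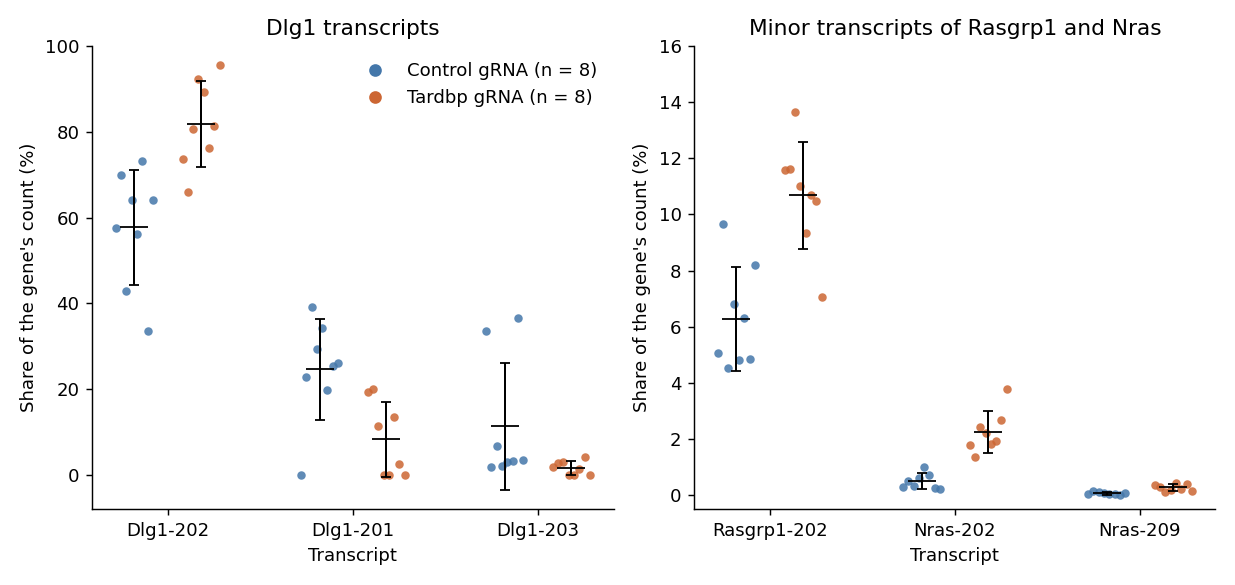
Share of the gene's estimated count taken by single transcripts in every library, in percent, with 8 control and 8 Tardbp-targeted libraries. Points are libraries and black marks the mean and SD. Dlg1-202 lies at 65.8 to 95.5% in Tardbp-targeted and 33.6 to 73.1% in control libraries, and Nras-202 does not overlap between the groups.

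The deposited Psi (percent spliced in, the fraction of transcripts that include a node) is a single value for each group of 8 libraries, so it has no spread and no test here. For Dlg1 node 11 it went from 0.5261 in control to 0.638 with the Tardbp gRNA. For node 24 it went from 0.659 to 0.789, and for its alternative, node 25, from 0.361 to 0.279. Nodes 11 and 24 were 2 of 130 core exon nodes of the 8 genes to differ by more than 0.1, and no other did, where 0.932% of all core exon nodes did. Node 25 stood next among the core exons. At the other end of the gene the 2 first start nodes, 2 and 3, went from 0.755 to 0.670 and from 0.240 to 0.332.

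Inclusion rebuilt per library from the transcript counts had the same direction as Psi at nodes 11, 24 and 25. It passed at none of these nodes, nor at start node 3. At node 3 the rebuilt value covers only the 3 annotated transcripts that span the node. It leaves out Dlg1-202, which starts after node 3 and had the largest mean share of the count. The direction at node 3 can therefore not be set against that of Psi. Node 3 had 85.1 ± 10.5% in control and 49.98 ± 34.9% in Tardbp-targeted libraries (limma adjusted p = 0.392). This was the widest rebuilt difference of the Dlg1 nodes, within those few transcripts. Node 24 went from 57.0 ± 12.2% to 83.7 ± 11.6% (n = 8 each, limma adjusted p = 0.0656). Node 25 went from 43.4 ± 12.2% to 16.9 ± 11.3% (adjusted p = 0.0656) and node 11 from 70.6 ± 11.4% to 89.6 ± 10.3% (adjusted p = 0.195). None of the 32 nodes of these genes tested by limma in this way was called (4 had an unadjusted p under 0.05), against 0.151% of 21874 nodes.

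**Figure D3:**
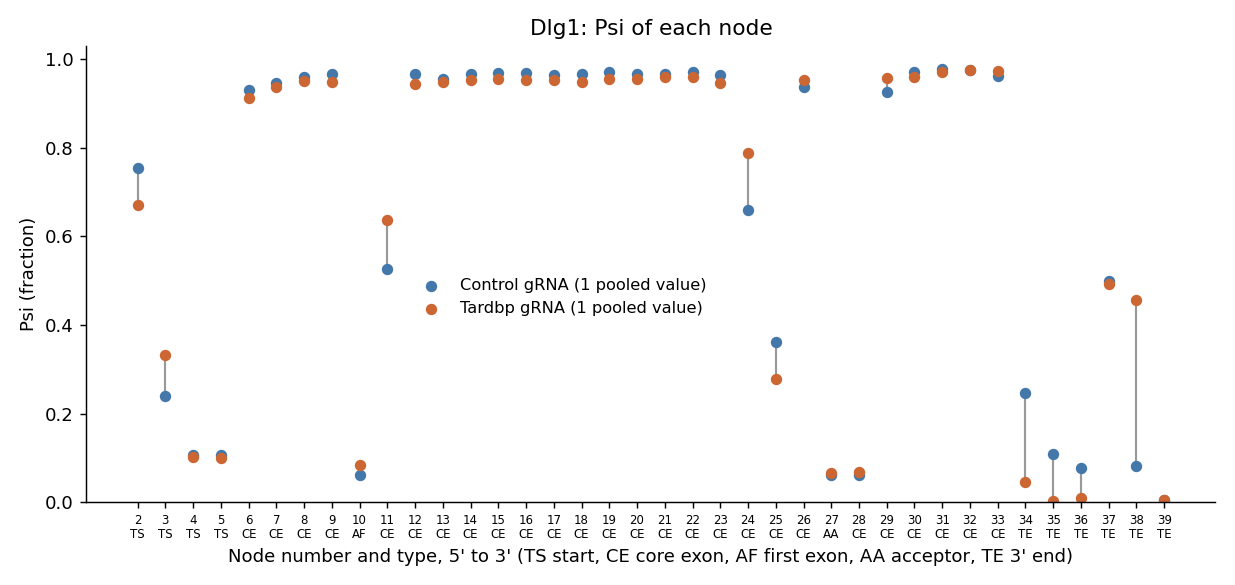
Psi of each of the 38 Dlg1 nodes in the table, as a fraction, in order from 5′ to 3′, with 1 value per group. The widest gaps are at the 3′ end nodes 34, 35 and 38 and at the alternative exons, nodes 11 and 24.

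The widest Dlg1 differences in Psi were among its 6 annotated 3′ ends, where Psi is the fraction of transcripts that end in the node. The most proximal, node 34 (chr16:31871675-31871846), went from 0.246 to 0.045, node 35 (chr16:31871847-31872261) from 0.110 to 0.004 and node 36 from 0.077 to 0.010. Node 38 (chr16:31873347-31873350) went from 0.082 to 0.457, while node 37, which ends 4 bases before it, had 0.498 and 0.493. The last 3 ends lie within 10 bases of each other, and together they took 0.585 in control and 0.955 with the Tardbp gRNA, against 0.433 and 0.059 for the 3 ends before them.

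The last 30 bases of a Dlg1 end that went down and of an end that went up are shown with their poly(A) signal, the hexamer that marks a site for cleavage, in capitals (GENCODE M21, GRCm38, plus strand).
Dlg1 node 35, ending at chr16:31872261: gacttctgctATTAAAgtaatgatttcatt
Dlg1 node 38, ending at chr16:31873350: aacagctAATAAActttattgtaaaatcca
Node 36, which also went down, had AATAAA starting 40 bases before its end. Nodes 37 and 39, whose Psi hardly differed between the groups, hold the same AATAAA as node 38. The hexamer therefore does not set the ends that went up apart from the others. Node 34 had neither AATAAA nor ATTAAA in its last 40 bases. Of 12072 annotated 3′ ends read in a transcript, 59.9% held 1 of these hexamers there and 47.8% held the AATAAA form. Searched in the 300 bases before each end, the TGTGTG repeat was at none of the 6 Dlg1 ends, and at 18.7% of all ends read (searched on the strand of the RNA).

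Of the 163 nodes of the 8 genes 8 differed by more than 0.1 in Psi, against 4.70% of all nodes. Of these 8, 6 were among the 16 annotated 3′ ends of the genes, a kind of node that differed by more than 0.1 in 21.5% of cases over the whole table. Beside the Dlg1 nodes 11, 24, 34, 35 and 38 they were 2 ends of Rasgrp1 and 1 of Sos2. Dlg1 node 35 (-0.106) stood just inside the limit and the Grb2 ends (-0.098 and 0.098) just outside. The study itself names Dlg1 and Sos2 among genes with Tardbp-dependent events in these data. The counts among the 8 genes are therefore not independent of what was already known of them.

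In Rasgrp1 the most proximal end, node 21 (chr2:117282542-117282676), went from 0.445 to 0.174. Node 22 (chr2:117279994-117282541), which ends 2548 bases further on, went from 0.358 to 0.539, and node 23, the single base after it, from 0.198 to 0.288. None of the 3 had either hexamer in its last 40 bases.

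In Sos2 the last of 3 ends, node 28 (chr12:69583766-69584852), went from 0.878 to 0.990, and the earlier ends from 0.082 and 0.053 to 0.010 each. The last end is the only one of the Sos2 ends with a hexamer in its last 40 bases, and is shown in the same form (minus strand).
Sos2 node 28, ending at chr12:69583766: gattAATAAAtcacctcagtcttaatttgt

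In Grb2 the proximal end, node 10, went from 0.389 to 0.291 and the distal end, node 11, from 0.612 to 0.709. The distal end has AATAAA starting 24 bases before it and the proximal end neither hexamer. Nras moved the other way and by less, from 0.542 to 0.584 at its proximal end, node 8, and from 0.457 to 0.416 at its distal end. In the 300 bases before the end, TGTGTG occurred 1 time at Grb2 node 11 and 1 time at Nras node 8. It was at no other of the 16 annotated ends of the 8 genes, against 18.7% of all ends read. Sos1, Rasa1 and Rasa2 have no 3′ end node in the table.

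Weighted by Psi, the mean 3′ end lay further downstream with the Tardbp gRNA by 690 bases in Rasgrp1, 453 in Dlg1, 140 in Sos2 and 59.2 in Grb2, and in Nras it differed by -146 bases. Of 4680 genes with adjoining ends 10.1% had a mean end over 100 bases further downstream and 4.29% one over 100 bases further upstream, and the median was 0.1 bases. These values rest on 1 Psi per group and were not tested. The transcript counts gave the most proximal ends little or no count. Over all 16 libraries Rasgrp1-203, Rasgrp1-204, Rasgrp1-205 and Rasgrp1-206, which stop at Rasgrp1 node 21, totalled 0 each. Dlg1-205, which stops at Dlg1 node 34, totalled 1. Of Sos2, Sos2-203 stops at the most proximal end and totalled 0, and Sos2-204 stops inside that node and totalled 18.

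**Figure D4:**
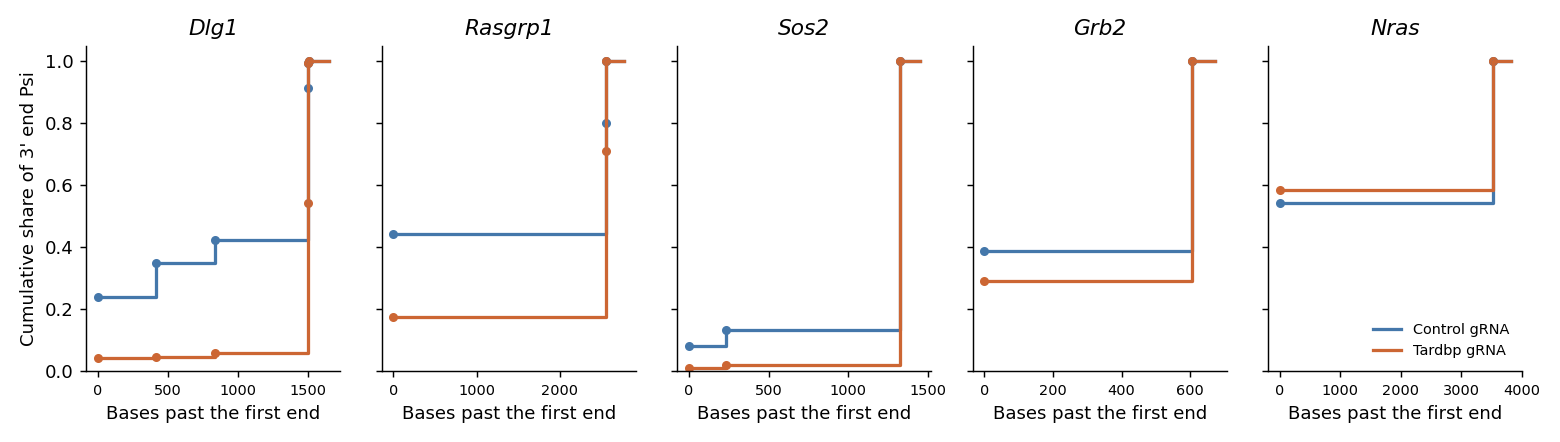
Cumulative share of the 3′ end Psi against the distance in bases from the most proximal annotated end, for the 5 genes with 2 or more ends, with 1 line per group. Dlg1 and Rasgrp1 show the widest gaps between the groups, and Nras a small gap in the other direction.

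A second measure of the ends, the share of transcript counts by annotated transcript end, was chosen after the data were seen. It went from 49.4 ± 12.7% to 71.8 ± 11.2% at Dlg1 node 37 (limma adjusted p = 0.113) and from 25.9 ± 12.01% to 9.03 ± 9.46% at node 36 (adjusted p = 0.217), neither of which passed. Of the 16 ends 1 was called, against 0.417% of 10780 ends. That was Rasgrp1 node 23, at 78.4 ± 5.19% and 67.0 ± 4.57% (n = 8 each, limma adjusted p = 0.0399). Its Psi went up, but the measures differ in kind. The share is taken over all transcripts of the gene, and Rasgrp1-202 among them ends in none of the annotated end nodes.

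Rasgrp1-202, annotated as a retained intron, takes the share that the coding Rasgrp1-201 gives up in this measure. Its share of the count was 4.53 to 9.65% in control (mean 6.28 ± 1.86%) and 7.06 to 13.6% in Tardbp-targeted libraries (mean 10.7 ± 1.91%). Of the 8 Tardbp-targeted libraries 6 lay above every control library. The difference of 4.399 points had a limma adjusted p of 0.0131 but did not reach 10 points, and per length it was 11.4 points and was called (adjusted p = 0.0120). As a count Rasgrp1-202 rose (log2 fold change 0.72, edgeR adjusted p = 0.0126), and Rasgrp1-201 did not pass (-0.11, adjusted p = 0.394).

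In Nras the coding transcript Nras-201 (189 codons) held 96.35 to 98.6% of the count in control and 92.5 to 96.34% in Tardbp-targeted libraries, without overlap (difference -2.86 points, limma adjusted p = 0.0123). Nras-202, annotated as a target of nonsense-mediated decay with 46 codons, held 0.209 to 1.02% and 1.38 to 3.77%, again without overlap (1.76 points, limma adjusted p = 0.00254). Both differences were under 10 points. As counts, Nras-201 fell by 0.30 on the log2 scale (edgeR adjusted p = 0.000116), while Nras-202 (1.93, adjusted p = 0.000553) and Nras-209 (1.73, adjusted p = 0.0244), another annotated decay target of 46 codons, rose. The widest Psi difference in Nras was at the 42-base exon node 7 (chr3:103064116-103064157), from 0.891 to 0.843.

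Of 29 transcripts of the 8 genes tested as counts 5 passed: Nras-201, Nras-202, Nras-209, Rasgrp1-202 and Rasa1-201, a share close to the 16.6% of all transcripts that passed. On p alone 5 of 27 passed in the test of shares (Dlg1-202 and the Rasgrp1 and Nras transcripts 201 and 202), against 4.42% of all transcripts. Shares within a gene are not independent of each other. Rasgrp1-201 and Rasgrp1-202 differed by -4.39 and 4.40 points, which is nearly a single result counted for both. Rasa1-201, the coding transcript of Rasa1, rose (0.54, edgeR adjusted p = 0.00986) and held 98.9 ± 0.485% and 98.7 ± 0.573% of the gene's count.

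Sos1, Rasa1 and Rasa2 had no node that differed by more than 0.1. The widest difference was 0.019 in Rasa1, -0.040 in Rasa2 (node 14) and -0.049 in Sos1 (node 14), and among core exons of Sos2 -0.052 (node 24). Core exon Psi in control was 0.965 to 0.990 in Rasa1 but 0.873 to 0.921 in Sos1 and 0.863 to 0.924 in Sos2, and the reads behind a Psi value are unknown here. Sos1-201 held 98.0 ± 3.005% and 99.1 ± 1.21% of the Sos1 count, and Rasa2-201 93.9 ± 1.70% and 94.4 ± 2.55% of the Rasa2 count. Sos2-201 held 68.9 ± 28.97% and 73.9 ± 12.4%, and Sos2-206, a coding transcript with a shorter 3′ end, 14.2 ± 21.7% and 8.42 ± 12.5% (limma adjusted p = 0.886 and 0.815). Grb2-201 held 89.5 ± 16.6% and 93.9 ± 9.61% (adjusted p = 0.820).

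Around these genes, 31 of 71 other pathway genes tested passed, 19 higher and 12 lower, with a median log2 fold change of 0.09, near the 46.7% of all genes that passed. Among 4 other Ras genes Rras passed, with 13.0 ± 1.87 and 17.2 ± 2.27 CPM (0.40, edgeR adjusted p = 0.00252). Of 3 other exchange factors none passed. Of 9 other GTPase activators or their partners 2 passed, Rasal3 higher (238 ± 41.8 and 333 ± 43.1 CPM, 0.48, adjusted p = 0.000774) and Rasa3 lower (436 ± 79.8 and 367 ± 37.1 CPM, -0.25, adjusted p = 0.0457).

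Of 10 other adaptors and enzymes above Ras 6 passed, 4 higher and 2 lower, where 46.7% of all genes passed. Gab3, a docking protein, had the highest fold (7.18 ± 2.24 and 15.99 ± 3.84 CPM, 1.16, edgeR adjusted p = 4.79e-05) and Themis, a Grb2-bound regulator of receptor signalling, the lowest (221 ± 23.2 and 156 ± 8.37 CPM, -0.51, adjusted p = 9.99e-07). Of 5 diacylglycerol kinases, which consume the lipid that recruits Rasgrp1, 1 was higher (Dgkz, 0.35, adjusted p = 0.0239) and 2 were lower (Dgke the most, -0.40, adjusted p = 0.00155). Of 8 Raf, MEK and ERK genes 3 passed, 1 higher (the MEK gene Map2k2, 0.27, adjusted p = 0.0307) and 2 lower (the other MEK gene Map2k1 the most, -0.28, adjusted p = 0.00102).

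Of 13 genes of ERK feedback and early response 9 passed, 8 higher and 1 lower, where 46.7% of all genes passed and 23.5% as higher, and the median log2 fold change of the list was 0.65 against 0.05 over all genes. The same shares of all genes stand beside the counts of the next 2 lists. Egr2, an early response transcription factor, had the highest (8.25 ± 3.82 and 25.1 ± 8.44 CPM, 1.60, edgeR adjusted p = 6.30e-05) and Dusp4, a nuclear phosphatase of ERK, the lowest (24.6 ± 6.38 and 15.8 ± 3.61 CPM, -0.64, adjusted p = 0.00303). Of 13 other genes of the Dlg and Scribble complex 2 passed, the scaffold Mpp1 higher (0.46, adjusted p = 0.000254) and Ezr, which links membrane to actin, lower (-0.30, adjusted p = 1.89e-05). Of 6 p38 kinases and activators, a route that Dlg1 serves in T cells, 5 passed, 2 higher (Mapk11, 0.46, adjusted p = 0.00275) and 3 lower (Map2k3, 274 ± 12.9 and 207 ± 17.6 CPM, -0.40, adjusted p = 2.96e-06).

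**Figure D5:**
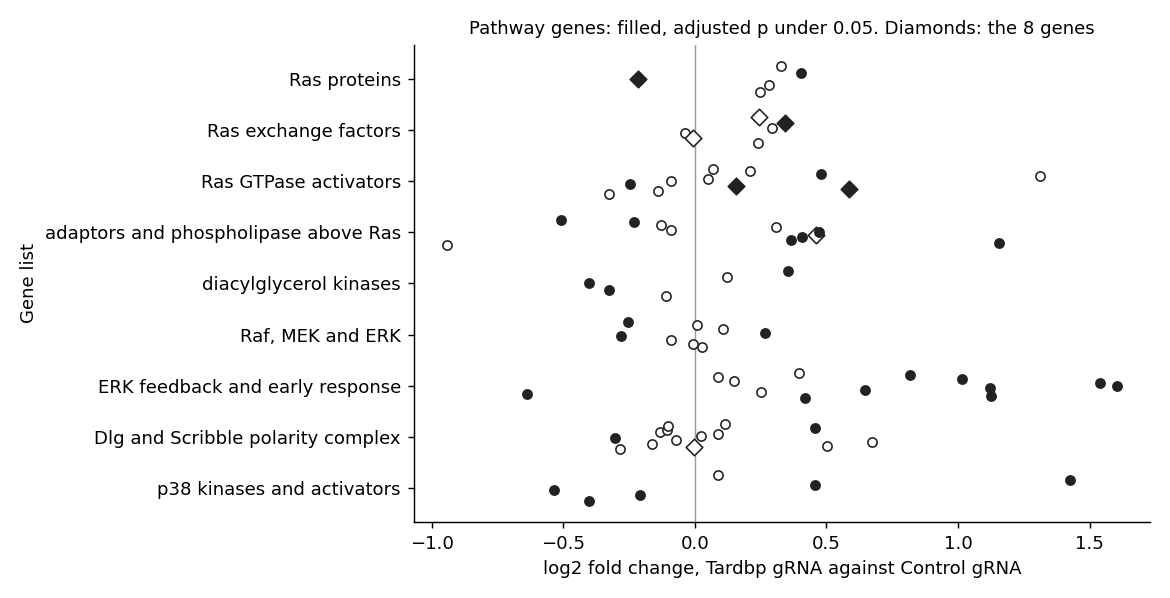
Log2 fold change between the guides of every tested gene of the pathway lists, 1 row per list, with the 8 genes marked and genes that passed at an edgeR adjusted p under 0.05 filled. In the list of ERK feedback and early response genes 8 filled symbols lie to the right of 0 and 1 to the left.

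Within groups the 8 genes did not vary as 1 unit. After subtraction of each group's mean, Grb2 and Rasa1 were the closest pair (Pearson r = 0.878 over 16 libraries) and Nras and Rasa1 the most opposed (-0.573). Among 8976 genes compared, those most like Grb2 were Hras (0.990) and Faf1 (0.978), and those most like Rasa1 were Pnrc1 (0.935) and Caap1 (0.932). For Sos1 they were Selenoi (0.926) and Hipk1 (0.878), for Sos2 N4bp1 (0.875) and Galnt1 (0.826), for Rasgrp1 C2cd5 (0.907) and Smarca2 (0.842), for Nras Pclaf (0.778) and Zfp668 (0.773), for Rasa2 Vopp1 (0.860) and Spata13 (0.771), and for Dlg1 Zfp598 (0.826) and Baz1b (0.824). These are the highest of many values over libraries that share preparation, and carry no test.

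A letter M or F is deposited for each library under the heading sex, with 3 M and 5 F among control and 5 M and 3 F among Tardbp-targeted libraries. In the edgeR test of its interaction with the guide none of 16650 genes passed, and 662 genes, none of the 8 among them, had an unadjusted p under 0.05. The widest gap among the 8 was in Grb2, with a log2 difference between guides of 0.79 in M and 0.18 in F libraries (interaction 0.63 ± 0.38, SE).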

How the data were processed

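RNA of 16 sorted CD8+ T cell libraries, 8 per guide, was compared. Per the labels and the submitters' processing notes, the authors aligned reads to mm10 with HISAT2 2.1.0 and made estimated counts per gene and transcript with StringTie 2.1.0, not normalized. Counts of read pairs were deposited from the sequencing facility (36831814 to 46373620 and 29714709 to 48164083). The authors ran Whippet (version not given in the sources used here) and deposited Psi as a fraction per group. The columns are lettered, and A was taken as Control gRNA from the study's text. That table's probability and difference columns are the authors' own comparison and were not used, nor were 10 columns of each count table that match no sample. Lines naming no annotated gene, 0.0836 to 0.132% of counts, were left out.

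Genes and transcripts were tested with edgeR 4.0.16 (quasi-likelihood, TMM, filterByExpr with a minimum count of 10), and shares and rebuilt inclusion with limma 3.58.1, all two-sided over all features with Benjamini-Hochberg adjustment at 0.05, after tests on simulated data. Shares also needed a difference over 0.1. CPM are on TMM library sizes, and single genes were also tested by exact permutation. Alternatives included DESeq2 1.42.0, RLE, no filter, covariates, blocks and each library left out. Named were all 8 genes, transcripts with at least 10% of the count, nodes over 0.1 and each gene's widest, the highest and lowest called gene of each list (mean log2 CPM from 3 upwards), and the 2 genes most like each member. Other genes named were chosen after their values were seen. The members and lists were chosen with earlier results of these data known. Some items are not reported here. Intervals and tests do not account for PCR copies.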

Additional observations from a re-analysis of the deposited data

Results flagged for a closer look

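In 40 groups of 8 libraries tested for a value far from the others by Dixon's criterion, which chance meets in about 1 in 20 groups, 6 were marked, all shares of the gene's count taken by 1 transcript. Grb2-201 was lowest in control 4 (48.8%, next 92.1%) and in Tardbp-targeted 2 (70.6%, next 93.9%). Rasa2-201 was lowest in Tardbp-targeted 3 (88.3%, next 93.9%). Sos2-201 was listed at 0.0% in control 5 (next 65.1%), the library in which Sos2-206 was highest (66.0%, next 15.5%), and Sos2-206 was also highest in Tardbp-targeted 4 (36.5%, next 14.0%). No gene level of the 8 genes was marked.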

How the results depend on the processing

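Of 4 genes called, 2 passed with the RNA concentration as a covariate, 2 at an adjusted p under 0.01 and 0 among libraries numbered 1 to 3 alone, and 2 to 5 passed with each library left out. Same-numbered libraries correlated at -0.221 to 0.435 after removal of group means, and each was the other's best match only for numbers 1 and 5. Whether they share more than a number is not known from the labels, and the main tests leave the number out. With the replicate block 3 genes passed (Rasa2 did not, adjusted p = 0.0577), 3 transcripts rather than 5, and 0 transcript shares rather than 1. Transcripts passed in 4 to 6 cases and shares in 0 to 1 with each library left out. Shares gave 3 calls with counts divided by length, 5 with no minimum difference and 0 with the concentration as a covariate. Rebuilt inclusion gave 1 call with 3′ ends by transcript end, an alternative chosen, like the concentration for shares, after seeing the data. Psi gave 19 nodes over 0.05 and 3 over 0.2.

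The direction turned in uncalled results. Rasgrp1 had a log2 fold change of 0.02 with the letter as a covariate. Dlg1 had 0.0012 with the replicate block, 0.0025 with the letter and 0.23 with the concentration. With the concentration the share of Rasa2-201 differed by -0.51 points and that of Dlg1-203 by 10.6 points. With each library left out Dlg1 ranged from -0.055 to 0.019 and Rasgrp1 from -0.063 to 0.025 (log2), the shares of Grb2-201 from -1.45 to 7.69, Sos2-201 from -4.91 to 8.52 and Sos2-206 from -9.79 to 1.61 points, and the Sos2-206 count from -1.47 to 0.47 (log2). The cause was not tested. Over all genes 7783 passed, 2697 with the concentration and 1696 among numbers 1 to 3. Over all shares 210 passed, 110 with the replicate block, 375 by length, 13 with the concentration and 1451 with no minimum, and over rebuilt inclusion 33, against 5 with the block. Of values for single genes, transcripts or nodes under an alternative, 627 kept their direction and side of the threshold, 42 lost a call, 13 gained one and 18 turned in direction.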
